A study of Mus musculus with 19 samples.

Results

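The genes described here are 43 genes of DNA replication and of the G1/S step of the cell cycle, in mouse natural killer (NK) cells given IL-2 with or without a Janus kinase (JAK) inhibitor. They were chosen by name through the array's probe-set annotation. All 43 were measured, among 19752 genes. Each gene was read from a probe set with 1 symbol, the brightest where a gene had several (E2f3, Pcna and Rpa3 had 2 each).

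The 19 samples are splenic NK cells of male C57BL/6 mice 6 weeks old, enriched by removing other cells with a negative selection kit, each on 1 Affymetrix Mouse Gene 1.0 ST array. Untreated cells (3 samples) received neither cytokine nor inhibitor. All other cells were cultured for 8 h with IL-2 at 250 U/ml, either alone (4 samples), with a JAK3 inhibitor known by the code 6226 at 0.25, 1 or 4 µM (2 samples each), or with a JAK1 inhibitor known by the code 3404 at 0.0625 µM (1 sample), 0.25 and 1 µM (2 samples each) and 4 µM (1 sample). The labels do not say which samples came from separate mice or cultures, so the spread behind each p-value may be a technical one. A negatively selected spleen preparation can hold other cells, and in such bulk samples fewer cells of a type and less RNA per cell cannot be told apart.

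DNA replication starts when the origin recognition complex (Orc genes), Cdc6 and Cdt1 load the MCM helicase onto DNA in G1. The GINS complex and Mcm10 help to switch the helicase on, the clamp loader RFC places the PCNA clamp, and polymerases alpha, delta and epsilon copy the strands. Many of these genes are targets of the E2F transcription factors, which the retinoblastoma protein family holds back until cyclin-dependent kinases act, and IL-2 is a growth factor for NK cells that signals through JAK1 and JAK3.

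The stretches just upstream of the start site of 4 of the genes that rose with IL-2 are shown, since they hold different letters known from replication gene promoters. They are from RefSeq (GRCm38.p6), written 5′ to 3′ along the gene's strand, with E2F-type letters or a CCAAT box on either strand in capitals. Mcm6 lies at chr1:128359706-128359825 on the minus strand and Mcm5 at chr8:75109339-75109467 on the plus strand. Pold2 lies at chr11:5878257-5878376 on the minus strand and Pcna at chr2:132253181-132253300 on the minus strand. The Mcm5 stretch runs from 170 to 42 bases before the start and the others cover the last 120 bases before it.
Mcm6: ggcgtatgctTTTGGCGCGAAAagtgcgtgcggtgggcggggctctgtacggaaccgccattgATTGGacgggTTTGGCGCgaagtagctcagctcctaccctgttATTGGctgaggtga
Mcm5: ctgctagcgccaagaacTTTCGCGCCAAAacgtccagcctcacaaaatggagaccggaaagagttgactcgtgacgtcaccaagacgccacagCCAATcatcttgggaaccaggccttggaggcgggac
Pold2: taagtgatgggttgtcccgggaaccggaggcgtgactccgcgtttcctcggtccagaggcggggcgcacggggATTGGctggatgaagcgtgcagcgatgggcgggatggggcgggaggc
Pcna: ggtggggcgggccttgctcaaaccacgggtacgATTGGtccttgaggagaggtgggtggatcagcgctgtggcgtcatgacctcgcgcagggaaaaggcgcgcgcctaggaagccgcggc
Mcm6 and Mcm5 hold both E2F-type letters and a CCAAT box in these stretches, whereas Pold2 and Pcna show a CCAAT box and no E2F-type letters. The Mcm5 stretch was placed farther upstream to take in its E2F-type letters. Mcm2 and Rfc4, which also rose and are not shown, hold neither in their last 120 bases. The E2F-type letters searched were TTTCCCGC, TTTGGCGC, TTTCGCGC and TTTGCCGC on both strands, and neighbouring matches can overlap, as in Mcm6 and Mcm5. RefSeq windows of 300 bases, from 250 before to 50 after the start, were matched for 36 of the 43 genes (45 windows). Rfc2, Prim2, Mcm4, Gins2, Gins4, Gins1 and Pole were not matched. E2F-type letters were in 16 of the 45 windows (35.6%), against 2.26% of 32851 windows of all genes. By gene they were in 2 of the 6 genes that rose with IL-2 (Mcm6 and Mcm5) and in 14 of the 30 others matched. The CCAAT box (CCAAT, both strands) was in 62.2% of the genes' windows against 37.4% of all windows, and the E-box CACGTG in 15.6% against 7.15%. STAT5-type letters (TTCNNNGAA) were in 4.44% against 8.3%. A match is a description of the letters and not a bound site.

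The deposited intensities lie on 2 scales, a high-intensity set of 7 samples (log2 medians 7.49 to 7.59) and a low-intensity set of 12 (5.70 to 5.90). Values below are log2 intensities with the fitted difference between the sets removed for each gene, and fits carried a term for the set. The only untreated sample of the high set, replicate 2, is also the only untreated sample whose title gives no culture time, so set and culture time cannot be told apart there. Both samples at 4 µM JAK3 inhibitor and the single samples at 0.0625 and 4 µM JAK1 inhibitor were in the low set. Titles of samples with IL-2 write the units in lower case or in capitals (u and um, or U and uM). Untreated titles give no units, and their form was read from whether they state 8 h. This title form follows the set except for JAK3 inhibitor 4 µM replicate 1, a low-set sample with the form of the high set. In the high set 20.0% of probe sets had an identical value in 3 or more samples, among them those of 7 of the 43 genes (Chaf1a, E2f1, Gins3, Pola2, Rfc1, Rrm2 and Uhrf1). Among the 19 libraries, 2 stood low in the replication genes as a whole. Untreated replicate 3 was below replicate 4 in 40 of the 43 genes (median log2 difference -0.27, against -0.14 over all genes) and below replicate 2 in 41. JAK3 inhibitor 4 µM replicate 1 was below replicate 2 in 41 of 43 (median -0.53, against -0.19 over all genes). All 14 NK cell markers listed were measured, and their mean level was 7.61 to 7.86 in untreated and 8.86 to 9.25 in IL-2 samples. No detection values were used, so whether a marker was absent could not be told.

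**Figure D1:**
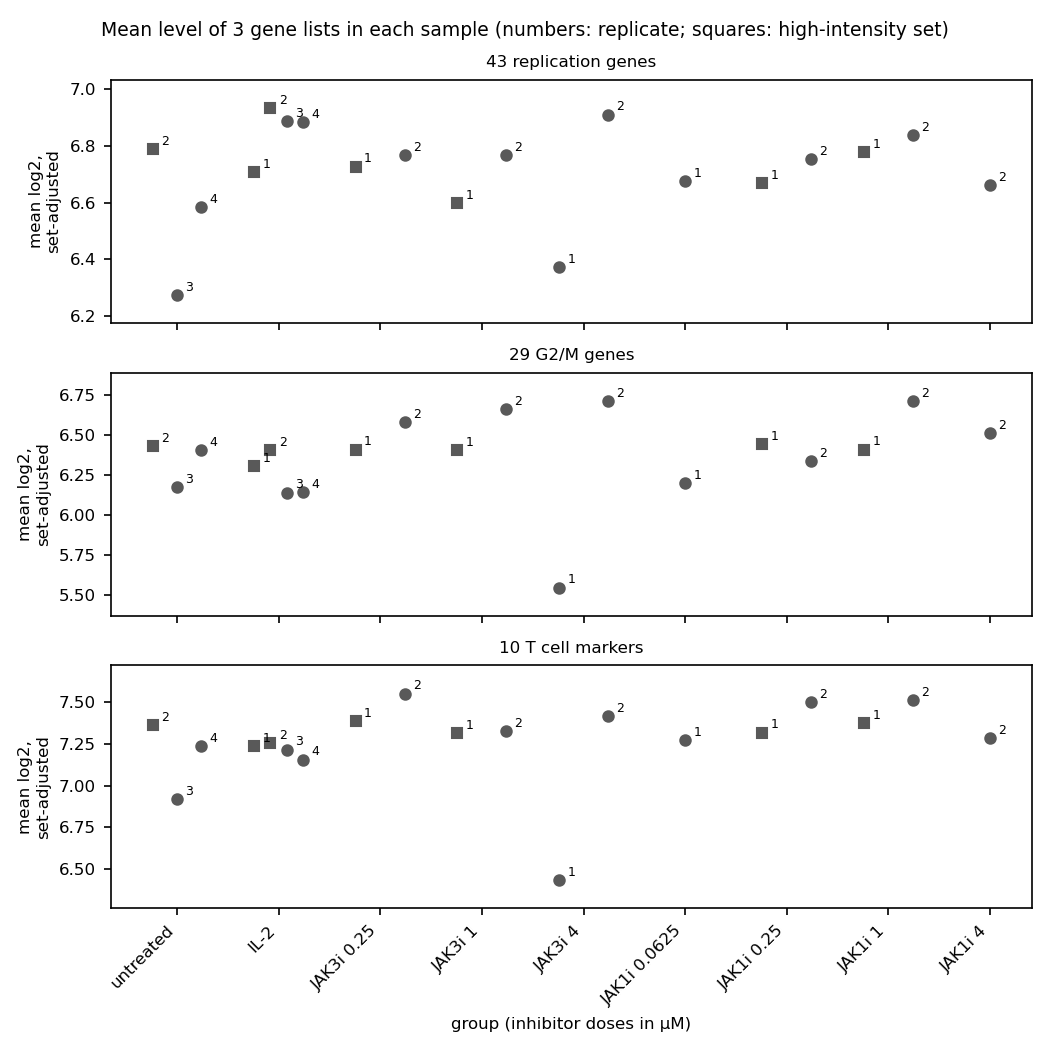
Mean set-adjusted log2 intensity of the 43 replication genes, 29 G2/M genes and 10 T cell markers in each of the 19 samples, by group (inhibitor doses in µM), with 1 point per sample, its replicate number beside it and squares for the high-intensity set. Untreated replicate 3 (6.27) and JAK3 inhibitor 4 µM replicate 1 (6.37) are the lowest points for the replication genes, and the latter is also lowest for G2/M genes (5.55) and T cell markers (6.43).

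IL-2 raised 6 of the 43 genes at 8 h and lowered 0. The 6 were the polymerase delta subunit gene Pold2, the helicase subunit genes Mcm2, Mcm5 and Mcm6, the clamp gene Pcna and the clamp loader gene Rfc4. Of the 43 genes 14.0% were called higher, against 6.56% of all 19752 genes (9.15% in either direction), by limma with adjusted p under 0.05. The median log2 difference of the 43 was 0.32, against -0.01 over all genes, with 38 positive and 5 negative (Chaf1a, E2f2, Gins3, Prim2 and Rpa1). The count was 2 without IL-2 replicate 2 or 4, 3 without IL-2 replicate 3 and 18 without untreated replicate 2. With a term for the title form in place of the set, which puts 1 low-set sample among the high-set ones, it was 1. With only the untreated and IL-2 samples fitted it was 2. Shares of all genes called in these alternative fits are not given here. Their counts therefore show how the calls depend on the fit, not how the 43 genes stand against all genes. Of 16 alternative settings Pold2 was called in 15, Mcm2 in 13, Mcm5, Mcm6 and Pcna in 8 each and Rfc4 in 6. At an unadjusted p under 0.05 there were 21 of the 43 genes (48.8%), against 3769 of all genes (19.1%). The 29 G2/M genes measured had 0 calls, 0 at an unadjusted p under 0.05 and a median of -0.09.

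**Figure D2:**
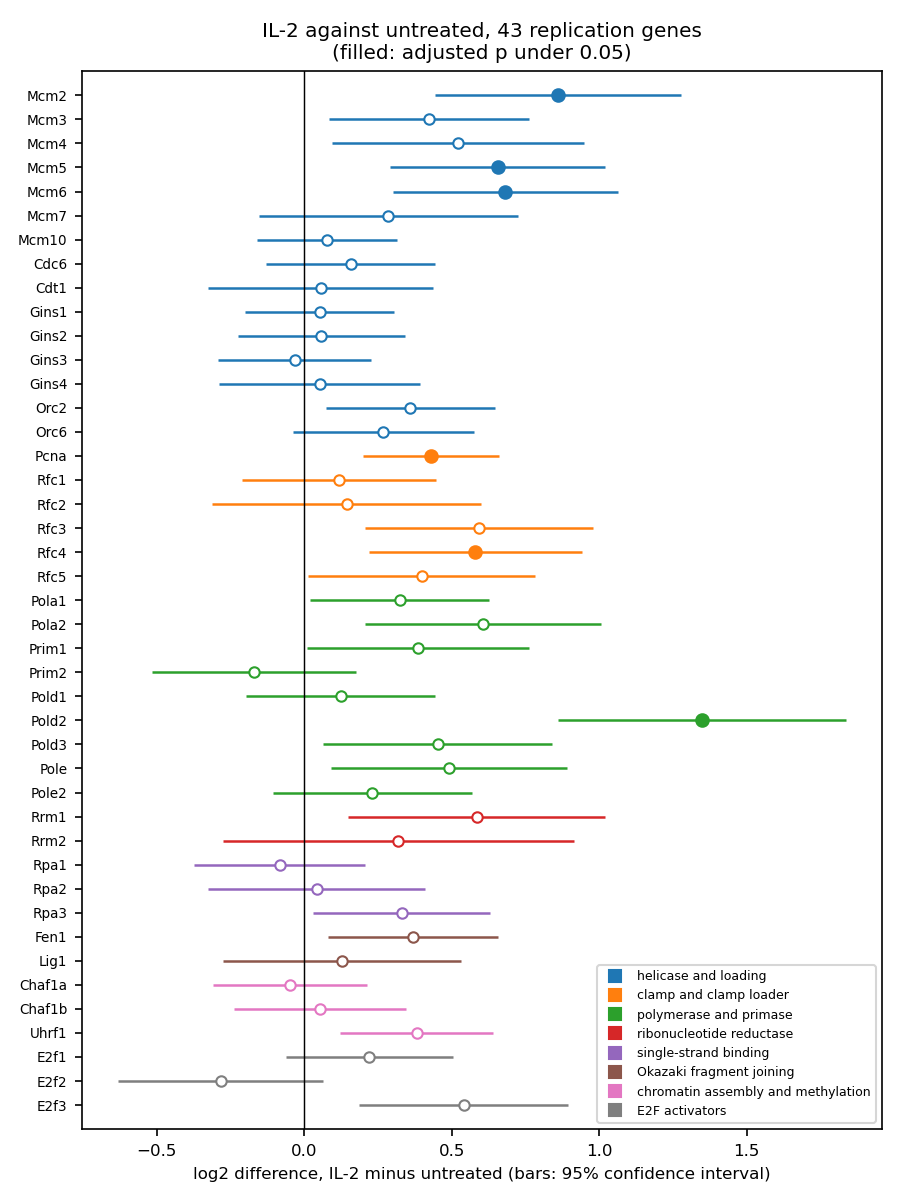
Log2 difference between IL-2 (4 samples) and untreated cells (3 samples) for each of the 43 genes, coloured by role, with 95% confidence intervals from limma and filled points where the adjusted p was under 0.05. Pold2 lies farthest to the right at 1.35, and 5 genes lie left of 0.

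The helicase and its loading factors held 3 of the 6 calls. Mcm2, a subunit of the MCM helicase, measured 7.35, 6.54 and 7.16 in untreated replicates 2, 3 and 4 and 7.62, 8.05, 7.82 and 8.02 in IL-2 replicates 1 to 4. Every IL-2 sample was above every untreated sample, and the difference was 0.86 ± 0.20 on the log2 scale (SE; limma adjusted p = 0.00675). With the JAK3 inhibitor Mcm2 measured 7.36 and 7.13 at 0.25 µM, 7.06 and 7.30 at 1 µM and 6.79 and 7.53 at 4 µM. With the JAK1 inhibitor it measured 7.52 at 0.0625 µM, 7.07 and 7.46 at 0.25 µM, 7.35 and 7.43 at 1 µM and 7.37 at 4 µM. All 12 inhibitor samples lay below all 4 IL-2 samples, but no dose passed the test (smallest adjusted p = 0.0726, at 4 µM JAK3 inhibitor). Mcm2 was picked for its small p against untreated cells, which came from these same 4 IL-2 samples. Inhibitor samples lying below them are thus favoured by the choice, for Mcm5, Pcna and Pold2 as well. How many of all genes show such a separation was not counted.

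Mcm5, another subunit of the same ring, measured 7.87, 7.11 and 7.71 in untreated replicates 2, 3 and 4 and 8.05, 8.27, 8.33 and 8.22 in IL-2 replicates 1 to 4. The groups did not overlap, and the difference was 0.66 ± 0.17 (adjusted p = 0.0194). Its levels were 7.89 and 7.84 at 0.25 µM, 7.60 and 7.93 at 1 µM and 7.42 and 7.99 at 4 µM with the JAK3 inhibitor. They were 7.86 at 0.0625 µM, 7.77 and 7.83 at 0.25 µM, 7.89 and 7.92 at 1 µM and 7.86 at 4 µM with the JAK1 inhibitor, again all below the IL-2 samples. The Mcm5 call was lost without IL-2 replicate 2, 3 or 4 or without untreated replicate 3 (adjusted p = 0.0515 to 0.103).

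Mcm6, a further subunit of the ring, measured 7.58, 6.87 and 6.99 in untreated replicates 2, 3 and 4 and 7.49, 7.97, 7.83 and 8.01 in IL-2 replicates 1 to 4. Here the groups overlapped, since IL-2 replicate 1 lay below untreated replicate 2, both of the high-intensity set. The difference was 0.68 ± 0.18 (adjusted p = 0.0194), and it was 0.99 within the low set and 0.15 within the high set. With the JAK3 inhibitor Mcm6 measured 7.35 and 7.54 at 0.25 µM, 6.98 and 7.32 at 1 µM and 7.08 and 7.51 at 4 µM, and with the JAK1 inhibitor 7.38 at 0.0625 µM, 7.34 and 7.53 at 0.25 µM, 7.62 and 7.38 at 1 µM and 7.32 at 4 µM. Unlike for Mcm2 and Mcm5, inhibitor samples overlapped the IL-2 samples, with those at 7.51 to 7.62 above IL-2 replicate 1 (7.49). The Mcm6 call was lost without IL-2 replicate 2, 3 or 4 or untreated replicate 3 or 4 (adjusted p = 0.06 to 0.101).

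The other 12 genes of helicase and loading did not pass. Mcm4 (0.52 ± 0.20), Mcm3 (0.42 ± 0.16) and the origin gene Orc2 (0.36 ± 0.14) had adjusted p of 0.14, 0.127 and 0.124. Mcm7 was at 0.29 ± 0.21, Orc6 at 0.27 ± 0.15 and the loading factor gene Cdc6 at 0.16 ± 0.14. The remaining genes were near 0, with Mcm10 at 0.08, Cdt1 and Gins2 at 0.06, Gins1 and Gins4 at 0.05 and Gins3 at -0.03.

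Pcna, the sliding clamp that holds polymerases on DNA, measured 9.17, 9.26 and 9.05 in untreated replicates 2, 3 and 4 and 9.52, 9.63, 9.56 and 9.65 in IL-2 replicates 1 to 4. The untreated and IL-2 samples did not overlap, with a difference of 0.43 ± 0.11 (adjusted p = 0.0143). With the JAK3 inhibitor it measured 9.23 and 9.21 at 0.25 µM, 9.29 and 9.31 at 1 µM and 9.28 and 9.24 at 4 µM. JAK1 inhibitor samples stood at 9.28 at 0.0625 µM, 9.25 and 9.22 at 0.25 µM, 9.32 and 9.31 at 1 µM and 9.25 at 4 µM. All 12 inhibitor samples fell between 9.21 and 9.32, below the lowest IL-2 sample, though no dose passed the test (smallest adjusted p = 0.108, at 0.25 µM JAK3 inhibitor). After quantile normalization the rise was 0.26 and was not called (adjusted p = 0.137), and it was also lost without IL-2 replicate 2 or 4 or untreated replicate 4.

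Among the clamp loader genes, Rfc4 measured 7.58, 7.45 and 7.08 in untreated replicates 2, 3 and 4 and 7.92, 8.13, 7.94 and 7.81 in IL-2 replicates 1 to 4. The groups did not overlap, and the difference was 0.58 ± 0.17 (adjusted p = 0.039). JAK3 inhibitor samples were at 7.37 and 7.62 at 0.25 µM, 7.45 and 7.67 at 1 µM and 7.17 and 7.93 at 4 µM. JAK1 inhibitor samples were at 7.93 at 0.0625 µM, 8.09 and 8.08 at 0.25 µM, 7.57 and 7.81 at 1 µM and 7.87 at 4 µM. Unlike Pcna, Rfc4 overlapped the IL-2 samples at several doses, and both samples at 0.25 µM JAK1 inhibitor were within the IL-2 range. Its call was lost without any single IL-2 sample or untreated replicate 4 (adjusted p = 0.0508 to 0.235) and after quantile normalization (0.0799).

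Rfc3, another clamp loader subunit gene, measured 6.72, 5.94 and 6.06 in untreated replicates 2, 3 and 4 and 6.42, 6.89, 7.16 and 6.86 in IL-2 replicates 1 to 4. Untreated replicate 2 lay inside the IL-2 range, and the difference of 0.59 ± 0.18 did not pass (adjusted p = 0.0501). JAK3 inhibitor samples were at 6.39 and 6.58 at 0.25 µM, 6.08 and 6.21 at 1 µM and 6.16 and 6.43 at 4 µM. JAK1 inhibitor samples were at 6.49 at 0.0625 µM, 5.84 and 6.04 at 0.25 µM, 6.57 and 6.31 at 1 µM and 6.25 at 4 µM. Rfc5 was at 0.40 ± 0.18 (adjusted p = 0.238), Rfc2 at 0.14 and Rfc1 at 0.12.

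Pold2, the second subunit of polymerase delta, had the largest difference of the 43. It measured 7.88, 6.81 and 7.52 in untreated replicates 2, 3 and 4 and 8.48, 8.90, 8.83 and 8.79 in IL-2 replicates 1 to 4. No untreated sample reached the lowest IL-2 sample, and the difference was 1.35 ± 0.23 (adjusted p = 5.17e-04). JAK3 inhibitor samples were at 8.15 and 8.13 at 0.25 µM, 7.58 and 8.05 at 1 µM and 7.11 and 8.15 at 4 µM. JAK1 inhibitor samples were at 8.40 at 0.0625 µM, 8.03 and 8.30 at 0.25 µM, 8.17 and 8.17 at 1 µM and 7.91 at 4 µM. All 12 inhibitor samples lay below all 4 IL-2 samples. The other genes of polymerases and primase did not pass, led by Pola2 (0.61 ± 0.19, adjusted p = 0.0529), Pole (0.49), Pold3 (0.45), Prim1 (0.39) and Pola1 (0.32). Pole2 was at 0.23, the catalytic subunit gene Pold1 at 0.12 and Prim2 at -0.17.

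Both ribonucleotide reductase genes, which supply deoxynucleotides, were not called (Rrm1 0.58 ± 0.21, adjusted p = 0.0965; Rrm2 0.32 ± 0.28). Of the single-strand binding genes Rpa3 was at 0.33, Rpa2 at 0.04 and Rpa1 at -0.08. The flap nuclease gene Fen1 was at 0.37 ± 0.14 (adjusted p = 0.119) and the DNA ligase gene Lig1 at 0.13. Uhrf1, which helps to copy DNA methylation, was at 0.38 ± 0.12 (adjusted p = 0.0614), and the chromatin assembly genes Chaf1b and Chaf1a at 0.05 and -0.05.

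The 3 activator E2F genes differed in sign. E2f3 measured 5.80, 5.32 and 5.88 in untreated replicates 2, 3 and 4 and 6.14, 6.15, 6.35 and 6.18 in IL-2 replicates 1 to 4. All IL-2 samples were above the untreated ones, and the difference of 0.54 ± 0.17 lay just outside the threshold (adjusted p = 0.0504). E2f3 was at 5.60 and 5.73 at 0.25 µM, 5.42 and 5.60 at 1 µM and 4.97 and 5.80 at 4 µM with the JAK3 inhibitor, and at 6.30 at 0.0625 µM, 6.16 and 5.99 at 0.25 µM, 5.80 and 5.69 at 1 µM and 5.60 at 4 µM with the JAK1 inhibitor.

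E2f1 measured 6.22, 5.87 and 6.05 in untreated replicates 2, 3 and 4 and 6.22, 6.31, 6.35 and 6.20 in IL-2 replicates 1 to 4. In the high set untreated replicate 2 and IL-2 replicate 1 had the same deposited value (log2 7.629), as did JAK3 inhibitor 0.25 µM replicate 1. The untreated and IL-2 groups overlapped, and the difference was 0.22 ± 0.14 (adjusted p = 0.427). E2f1 stood at 6.22 and 6.20 at 0.25 µM, 6.27 and 6.30 at 1 µM and 6.13 and 6.66 at 4 µM with the JAK3 inhibitor and at 6.13 at 0.0625 µM, 6.24 and 6.35 at 0.25 µM, 6.18 and 6.39 at 1 µM and 6.17 at 4 µM with the JAK1 inhibitor. E2f2 measured 6.51, 6.17 and 6.62 in untreated replicates 2, 3 and 4 and 6.18, 6.36, 5.83 and 6.23 in IL-2 replicates 1 to 4. The groups overlapped and the difference was -0.28 ± 0.17 (adjusted p = 0.402). E2f2 stood at 6.66 and 6.76 at 0.25 µM, 6.48 and 6.68 at 1 µM and 6.17 and 6.81 at 4 µM with the JAK3 inhibitor and at 6.18 at 0.0625 µM, 6.46 and 6.71 at 0.25 µM, 6.48 and 6.59 at 1 µM and 6.44 at 4 µM with the JAK1 inhibitor.

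**Figure D3:**
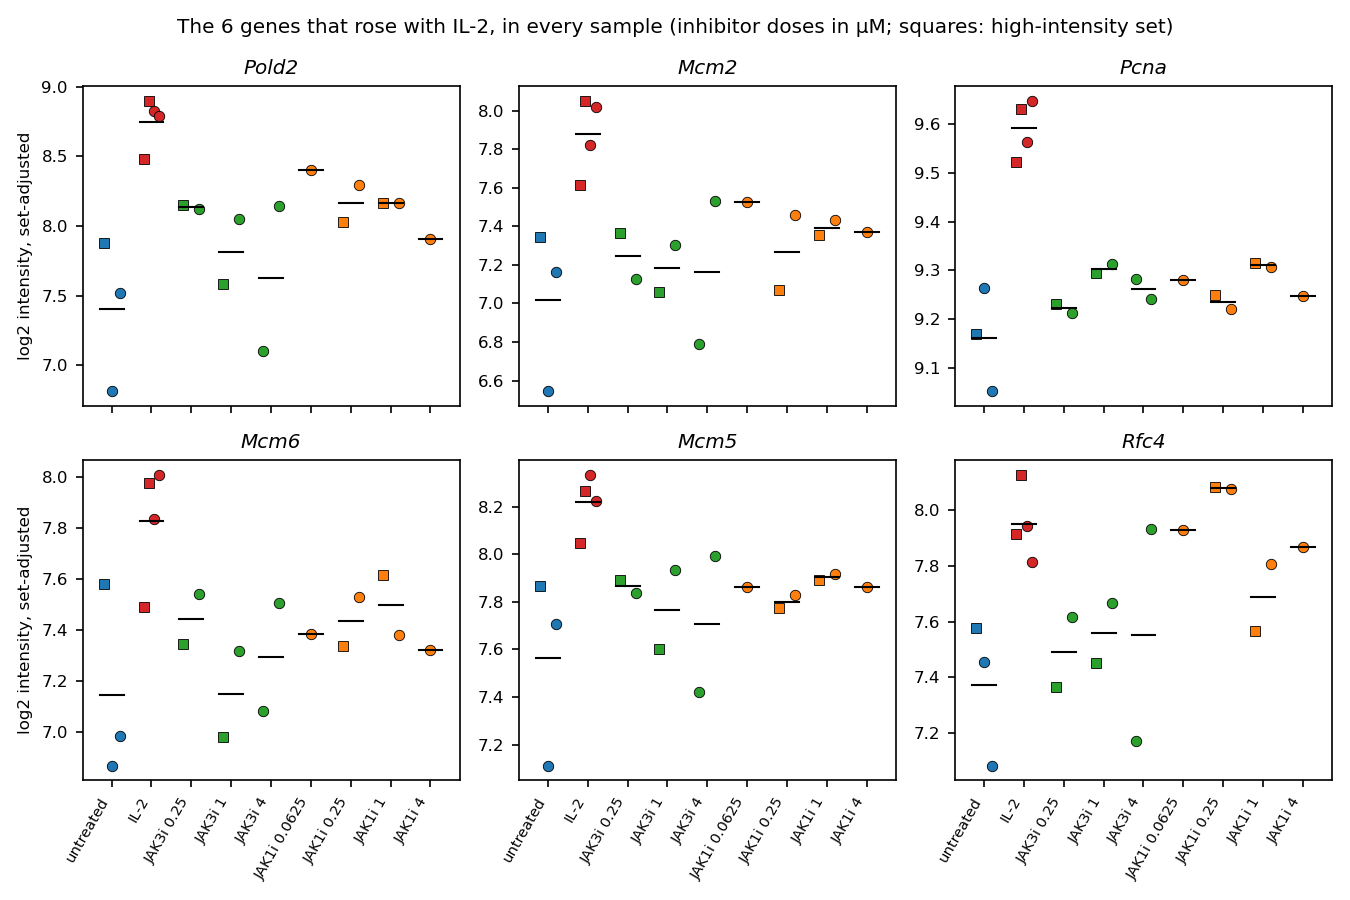
Set-adjusted log2 intensity of the 6 genes that rose with IL-2 in each of the 19 samples, by group (inhibitor doses in µM), with squares for the high-intensity set and a bar at each group's mean. Pcna shows all 12 inhibitor samples between 9.21 and 9.32, below the 4 IL-2 samples, whereas Rfc4 overlaps the IL-2 samples at several doses.

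Within each intensity set the comparison was repeated with no fitted term. IL-2 samples lay above untreated samples with no overlap in both sets for 13 of the 43 genes (30.2%), against 11.2% of all genes, and below in both sets for 0. The 13 were Mcm2, Mcm3, Mcm5, Mcm10, Orc6, Pcna, Rfc4, Rfc5, Pold2, Pole, Fen1, Uhrf1 and E2f3. The median difference of the 43 was 0.45 within the low set (2 against 2 samples) and 0.04 within the high set (2 against 1), with 40 and 26 of the 43 positive. The medians over all genes were -0.03 and 0.03, so that within the high set the 43 genes stood near all genes. A fit with a separate IL-2 effect for each set, added after seeing the data, called 0 of the 43 for a difference between sets (0% of all genes), with 9 (20.9%) at an unadjusted p under 0.05 against 13.5% of all genes. Fitted alone, the low set gave 3 calls among the 43 for IL-2, against 4.87% of all genes, and the high set gave 0 for any gene.

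Other lists moved in the same comparison. NK cell markers were higher in 11 of 14 and macrophage and monocyte markers lower in 12 of 14, with the mean level of the latter at 8.16 to 8.54 in untreated and 6.45 to 6.87 in IL-2 samples. Neutrophil markers were lower in 8 of 14 and B cell markers in 4 of 13, and T cell markers had 0 calls among 10 (1 at an unadjusted p under 0.05). The part of these shifts in the replication genes' differences was not tested. Without untreated replicate 3 and JAK3 inhibitor 4 µM replicate 1, an alternative added after seeing the data, 7 of the 43 genes were called, all higher. The share of all genes called in that fit is not given here, so the count does not set the 43 genes apart from the rest.

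A wider list of 65 other replication and G1/S genes, 62 of them measured, had 6 higher, 2 lower and a median of 0.17. Over all genes 6.56% were called higher and 9.15% in either direction, and the list's share was not tested against these. Dctd, which makes the precursor of thymidylate, was the most changed (2.15 ± 0.14, adjusted p = 2.10e-09). Cdca7 (0.95 ± 0.17), the retinoblastoma relative Rbl1 (0.84 ± 0.17) and the polymerase epsilon subunit gene Pole4 (0.66 ± 0.14) rose as well. Tfdp2, a partner of E2F proteins, fell by 0.89 (SE 0.14) and Rb1, the retinoblastoma gene, fell by 0.76 (SE 0.12). Dtl and Top1 were the other genes called higher.

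The inhibitors were compared with IL-2 alone, and all 7 dose comparisons share the same 4 IL-2 samples, as does the comparison with untreated cells. The JAK3 inhibitor lowered Pold2 and E2f3 at 1 and 4 µM. At 1 µM Pold2 differed by -0.93 ± 0.26 (adjusted p = 0.0349) and E2f3 by -0.69 ± 0.19 (adjusted p = 0.0302), which were 2 of 43 genes, against 3.69% of all genes called lower (6.55% in either direction). At 4 µM Pold2 differed by -1.12 ± 0.27 (adjusted p = 0.0125) and E2f3 by -0.82 ± 0.20 (adjusted p = 0.0121). These were again 2 of 43 genes, against 4.50% of all genes called lower (7.51% in either direction). At both doses the share of the 43 called lower was close to that of all genes. At 0.25 µM 0 of 43 genes were called by limma, against 2.74% of all genes called higher and 2.26% called lower, and 7 (16.3%) had an unadjusted p under 0.05, against 13% of all genes (2569). The medians of the 43 were -0.09, -0.14 and -0.19 from the lowest to the highest dose, against 0.06, 0.02 and -0.04 over all genes.

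These calls rest on few samples. Without JAK3 inhibitor 4 µM replicate 1, the library low in most of the 43 genes, Pold2 differed by -0.61 (adjusted p = 0.238) and E2f3 by -0.40 (adjusted p = 0.255), and 0 of 43 genes were called at 4 µM. Without replicate 2 there were 9. Replicate 1 was also below replicate 2 in the mean of G2/M genes (5.55 against 6.71) and of T cell markers (6.43 against 7.42). At 1 and 4 µM the macrophage and monocyte markers were called higher in 12 and 11 of 14 and the NK cell markers lower in 12 and 9 of 14. The part of these shifts in the Pold2 and E2f3 differences was not tested. At 1 µM there were 5 calls without IL-2 replicate 1 and 0 without any other single sample. Within the low and the high set the differences at 1 µM were -0.76 and -1.11 for Pold2 and -0.66 and -0.73 for E2f3. With the mean of its 2 probe sets E2f3 was not called at either dose (adjusted p = 0.0784 and 0.0892).

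The JAK1 inhibitor lowered 1 gene at 1 dose. Rfc3 at 0.25 µM differed by -0.89 ± 0.21 (adjusted p = 0.0258), 1 of 43 genes against 1.52% of all genes called lower (0.729% called higher), and of the samples compared, IL-2 replicate 1 was the only one whose removal kept the call. The difference was -0.97 within the low set and -0.82 within the high set. A single call among 43 genes is close to the share of all genes called lower. At 0.25 µM 7 of the 43 (16.3%) had an unadjusted p under 0.05, against 12.2% of all genes. At 0.0625, 1 and 4 µM limma called 0 of 43 genes, against 0.0203%, 5.16% and 3.77% of all genes called. At an unadjusted p under 0.05 there were 3, 6 and 5 of the 43 (7.0%, 14.0% and 11.6%), against 12.3%, 13.9% and 15.4% of all genes, which is below the share of all genes at 0.0625 and 4 µM and level with it at 1 µM. Fen1 came nearest at 1 µM (-0.51 ± 0.16, adjusted p = 0.0682) and 4 µM (-0.70 ± 0.21, adjusted p = 0.0689). The medians of the 43 were -0.15, -0.11, -0.01 and -0.20 from the lowest to the highest dose, against 0.08, 0.05, 0.08 and -0.10 over all genes. After quantile normalization they were -0.18, -0.08, -0.08 and -0.08, with all genes at 0.00 to 0.01, so the order of the doses by their medians turned on the scaling. Macrophage and monocyte markers were called higher in 8, 11 and 11 of 14 at 0.25, 1 and 4 µM JAK1 inhibitor, and NK cell markers lower in 0, 9 and 8 of 14. The part of these shifts in the replication genes' differences was not tested. E2f2 and Prim2 had positive differences at every dose of both inhibitors, none of which passed the test.

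**Figure D4:**
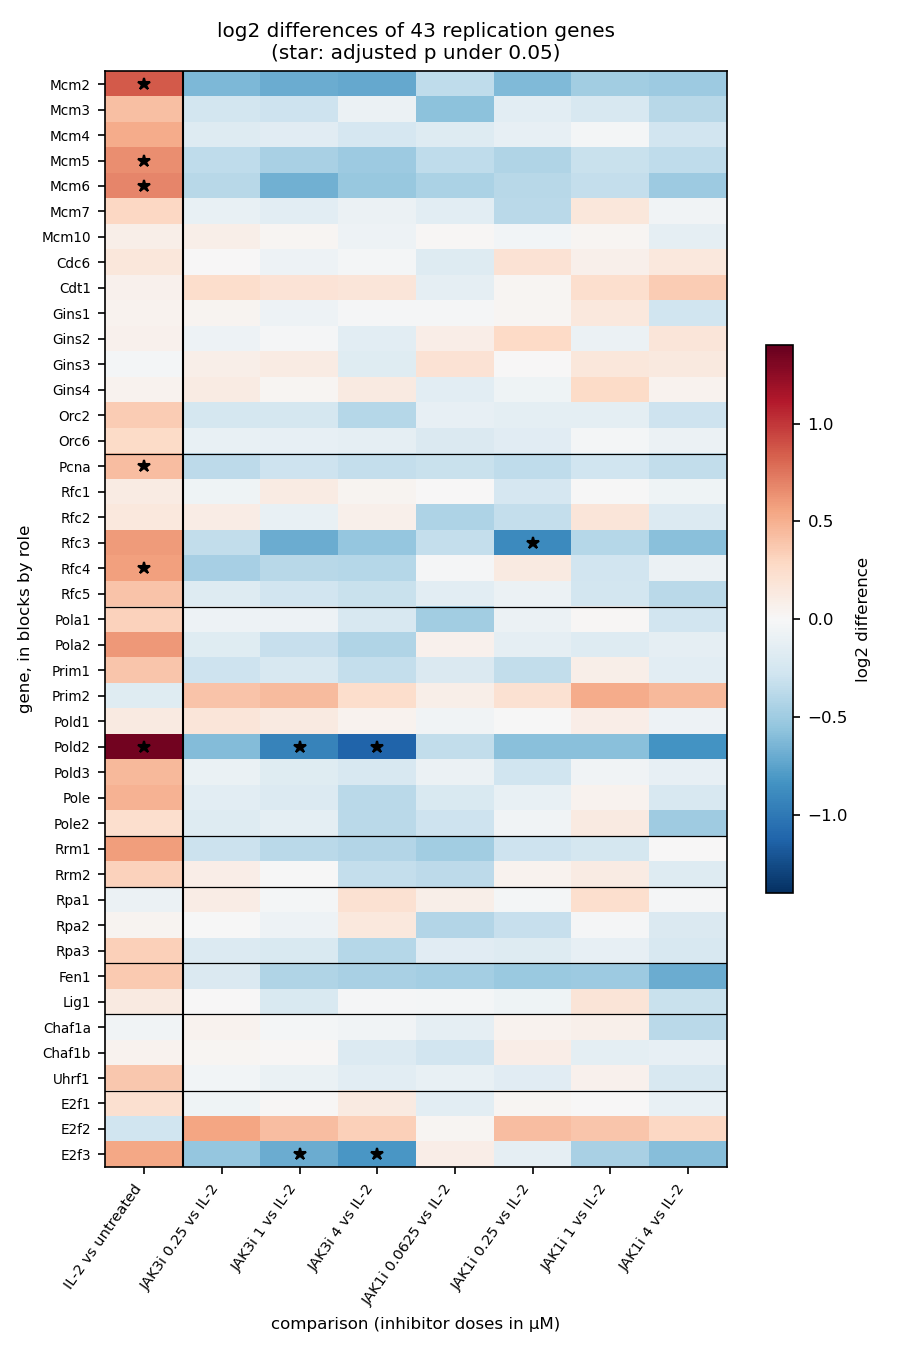
Log2 differences of the 43 genes, in blocks by role, for IL-2 against untreated cells and for each inhibitor dose (in µM) against IL-2 alone, with red higher, blue lower and a star where the adjusted p was under 0.05. The column for IL-2 holds 6 stars, and the inhibitor columns hold stars for Pold2 and E2f3 (1 and 4 µM JAK3 inhibitor) and Rfc3 (0.25 µM JAK1 inhibitor).

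Of the 6 genes of the wider list with the smallest p for IL-2, 3 were called at most inhibitor doses, 2 at fewer and Rbl1 at none. Dctd differed by -1.87, -2.03 and -1.98 on the log2 scale at 0.25, 1 and 4 µM JAK3 inhibitor, and by -0.74, -1.98 and -1.83 at 0.25, 1 and 4 µM JAK1 inhibitor, all called. Rb1 was higher at every JAK3 inhibitor dose (0.62, 0.85 and 0.86) and at 1 and 4 µM JAK1 inhibitor (0.59 and 0.88). Tfdp2 was higher at the same doses (0.58, 0.81 and 1.01, then 0.94 and 1.02). Pole4 was lower at 1 and 4 µM JAK3 inhibitor (-0.57 and -0.61) and at 4 µM JAK1 inhibitor (-0.89), and Cdca7 only at 4 µM JAK3 inhibitor (-0.93 ± 0.20). Rbl1 differed by -0.27 to -0.62 over the 7 doses with no call.

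The inhibitors were set against each other at 3 matched doses and over the mean of 0.25 and 1 µM, 4 comparisons in all. Their code names give no structure. Limma called 0 of the 43 genes in each (0.25, 1 and 4 µM and the mean), against 0.451%, 0%, 0% and 0.213% of all genes called. At an unadjusted p under 0.05 there were 2, 0, 0 and 1 of the 43, each a smaller share than the 6.6%, 0.845%, 2.7% and 3.8% of all genes. At 0.25 µM Rfc4 was higher with the JAK1 inhibitor by 0.59 ± 0.22 (95% interval 0.12 to 1.06, adjusted p = 0.499) and Rfc3 differed by -0.54 ± 0.24 (adjusted p = 0.676). The 95% intervals of the difference lay within 1 log2 unit of 0 for 40, 43, 40 and 43 of the genes, with a median half-width of 0.45, 0.45, 0.55 and 0.32. From the wider list, Dctd was higher with the JAK1 than with the JAK3 inhibitor at 0.25 µM by 1.14 ± 0.18 (adjusted p = 0.0034). In that comparison NK cell markers were called higher in 5 of 14 and macrophage and monocyte markers lower in 6 of 14. The part of these shifts in the Dctd, Rfc4 and Rfc3 differences was not tested.

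At 4 µM each inhibitor was also set against untreated cells. Limma called 0 of 43 genes with the JAK3 inhibitor and 0 with the JAK1 inhibitor (0% of all genes in each), with 1 gene each at an unadjusted p under 0.05 (E2f1 at 0.34 ± 0.16 and Chaf1a at -0.43 ± 0.19). That is 2.3% of the 43 in each, below the 8.7% and 6.4% of all genes. The medians of the 43 were 0.13 and 0.10. A difference that missed the threshold with 2 samples or 1 sample against 3 does not show that the levels were alike.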

How the data were processed

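The deposited table holds intensities on a linear scale, which the authors made with Affymetrix Power Tools and RMA, per the submitters' processing notes (no versions or settings given). Of 24922 probe sets, 21425 had 1 symbol, 1399 had several and 2098 were absent from the annotation, which gave 19752 genes. The deposited intensities were turned into log2. The main model, from limma 3.58.1 (R 4.3.3), took in all 19 samples with a mean per group and a term for the intensity set, then eBayes with a trend (9 residual and 10.5 prior degrees of freedom). Benjamini-Hochberg adjustment ran over all genes of a comparison, with a threshold of 0.05. A group of 1 sample borrows its spread from the other groups. The number of arrays limits the precision. The fit was tested on simulated data with independent normal errors and, for each gene, the same set shift in every group. That test does not cover tied values or an IL-2 effect that differs between the sets. Alternatives changed the set term, normalization, dim-gene filter, groups fitted, probe-set rule, replicate block and samples. The genes and lists were chosen with earlier results of these data known. Values in every sample are given for the genes with the 8 smallest p for IL-2 and the E2F genes, and of the wider list the 6 with the smallest p are named. Figures and tables used Python 3.11.15, numpy 2.4.6, pandas 2.3.3 and matplotlib 3.10.9.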

Additional observations from a re-analysis of the deposited data

Results flagged for a closer look

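In 43 checks of the 4 IL-2 samples, 1 per gene, 2 samples stood apart by Dixon's ratio at the 95% level, where chance gives about 1 in 20. Pola2 was at 7.056 in IL-2 replicate 1 and at 7.325 to 7.349 in the other replicates (ratio 0.918). Its deposited value in IL-2 replicate 1 (log2 8.412) was the same in JAK3 inhibitor 0.25 µM replicate 1 and untreated replicate 2. Rpa1 was at 6.462 in the same replicate and at 6.776 to 6.835 in the others (ratio 0.842). The cause was not tested.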

How the results depend on the processing

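Of 120 alternative counts of called genes, 80 stayed within 1.5 times the reported count and 40 moved. Many comparisons had a reported count of 0, and 0 against 0 was taken as staying. The 80 are therefore no measure of how stable the calls were. The causes were not tested, and shares of all genes called in these settings are not given here. The counts therefore do not set the 43 genes apart from all genes. The term for the title form puts JAK3 inhibitor 4 µM replicate 1, a low-set sample, among the high-set samples. Counts with that term, among them the 21 at 4 µM JAK3 inhibitor, therefore carry the scale difference of that sample. IL-2 against untreated cells (6 genes) gave 1 with a term for the title form (which differs from the set by JAK3 inhibitor 4 µM replicate 1), 10 after quantile normalization, 10 without the dimmest genes (the lowest tercile by mean level), 2 with only the compared groups, 3 in the low set, 0 in the high set and 2 to 18 with 1 sample left out. For the JAK3 inhibitor at 0.25 µM (0) the count was 4 after quantile normalization, 7 with only the compared groups and 6 without both libraries low in the genes. At 1 µM (2) it was 0 with the title form and in either set, 7 after quantile normalization, 4 without the dimmest genes, 8 with only the compared groups, 1 with the mean of probe sets, 7 without both low libraries and 0 to 5 with 1 sample left out. At 4 µM (2) it was 21 with the title form, 5 after quantile normalization, 0 in the low set, 1 with the mean of probe sets and 0 to 9 with 1 sample left out. For the JAK1 inhibitor at 0.25 µM (1) it was 0 with the title form and in either set, 3 after quantile normalization, 6 with only the compared groups, 5 without both low libraries and 0 to 1 with 1 sample left out. At 1 µM (0) it was 5 after quantile normalization, 1 without the dimmest genes, 5 with only the compared groups and 6 without both low libraries. At 4 µM (0) it was 1 without the dimmest genes, 3 with only the compared groups and 3 without both low libraries. With only the compared groups, JAK1 against JAK3 inhibitor gave 2 at 0.25 µM and 1 over the mean of doses (0 each). All other counts with 1 sample left out were 0. A replicate block gave 21 for IL-2 and 0 for the JAK3 inhibitor at 1 and 4 µM and the JAK1 inhibitor at 0.25 µM. Same-number correlations with IL-2 samples ranged from -0.54 to 0.60, and 7 of 15 were over 0.1, against 13 of 45 for other numbers (-0.81 to 0.54). They were taken on residuals of the main fit, which sum to 0 within each group. They therefore cannot decide whether the numbers paired the samples. Over the 16 settings for IL-2, 20 of the 43 genes turned sign in at least 1, 22 were called in at least 1, and 0 were called in every one. Settings within 1 set could not be fitted where a group had no sample in it. Signal over background was not used here.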
